A study of Homo sapiens with 4 samples.

Results

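In H1792, an established line of human lung cancer cells, 41 genes were expressed under DMSO and left almost no reads after treatment with the degrader ACBI1. They were chosen by level alone: at least 2 CPM (a gene's count divided by the sum of gene counts, times 1e+06) in both DMSO libraries and at most 0.2 CPM in both ACBI1 libraries. Of 61228 counted features, 12201 reached the DMSO minimum and 50 met both limits. From those 50, 9 were left out by name or by naming pattern (CSF2, CSF3, IL1B, LCN2, P2RX1, LINC00996, LINC01411, LINC02561 and SLC30A4-AS1), which left the 41 described here. ASB2, the only ubiquitin ligase component among them, had the highest mean DMSO level in CPM, a scale that does not correct for gene length. Because the limits used these same 4 libraries, the fall from DMSO to ACBI1 is how the genes were picked, and it is described below without a test.

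The series holds 4 RNA-seq libraries of H1792 cells with the genotype given as WT. Both groups were kept for 96 h, 2 libraries with DMSO, the solvent control, and 2 with ACBI1 at a dose that the labels write as 1 mM. The unit of that dose could not be checked here. Nothing in the labels says whether the 2 libraries of a group came from separate cultures, so the p-values below measure the spread between these libraries, which may be technical. A single value compared between 2 and 2 libraries cannot reach an exact permutation p below 0.333. The RNA came from whole dishes, and fewer cells that express a gene cannot be told apart from less RNA per cell.

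ACBI1 is a proteolysis-targeting chimera, a molecule that binds its target with one end and the VHL ubiquitin ligase with the other, so that the target is ubiquitinated and degraded. It acts on the SWI/SNF family of chromatin remodellers, binding their catalytic ATPases SMARCA2 and SMARCA4 and also PBRM1, which belongs to the PBAF form. SWI/SNF complexes move and evict nucleosomes and are known to keep enhancers and promoters accessible to transcription factors. ASB2 belongs to the ankyrin repeat and SOCS box (ASB) family. Such proteins bind elongin B, elongin C and cullin-5 through the SOCS box and present substrates to the ligase, and the best known substrates of ASB2 are the filamins, which crosslink actin. Promoters of vertebrate genes are commonly divided into those inside a CpG island, typical of widely expressed genes, and those poor in CpG, typical of genes with restricted expression.

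Sequence upstream of the start site is shown first for 7 of the genes. Low CpG content in the first 200 transcript bases was the sequence feature most of the 41 shared, and the rule did not use it. Upstream sequence was matched for 24 of the 41 only. Each line gives the 250 bases before an annotated start site from RefSeq (GRCh38.p14), 5′ to 3′ on the gene's own strand, with every CG dinucleotide in capitals. ASB2 and FCAMR have a second start in the table, with 6 and 3 CG dinucleotides before it, and the start farther upstream is shown for both. ASB2 (chr14:93976571-93976820, minus strand) held 8 CG dinucleotides. PIGR (chr1:206946467-206946716, minus strand) held 4 and FCAMR (chr1:206970461-206970710, minus strand) held 1, and these 2 genes lie side by side. CACNA1S (chr1:201112427-201112676, minus strand), with no ACBI1 read, held 7. VCAM1 (chr1:100719492-100719741, plus strand) held 2 and IL7R (chr5:35856641-35856890, plus strand) held none. ATOH8 (chr2:85753741-85753990, plus strand) is the contrast, 1 of the few CpG-rich starts among the 41, with 24.
ASB2: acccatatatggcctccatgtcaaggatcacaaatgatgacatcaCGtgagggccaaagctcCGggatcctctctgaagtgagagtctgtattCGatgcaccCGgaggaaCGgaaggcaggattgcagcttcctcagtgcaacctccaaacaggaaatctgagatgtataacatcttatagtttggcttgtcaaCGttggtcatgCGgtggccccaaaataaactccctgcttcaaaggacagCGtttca
PIGR: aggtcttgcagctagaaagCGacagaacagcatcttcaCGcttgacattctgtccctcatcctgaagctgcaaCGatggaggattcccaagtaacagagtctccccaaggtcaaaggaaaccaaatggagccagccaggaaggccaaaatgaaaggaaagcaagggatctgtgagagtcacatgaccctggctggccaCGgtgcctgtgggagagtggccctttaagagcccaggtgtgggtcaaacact
FCAMR: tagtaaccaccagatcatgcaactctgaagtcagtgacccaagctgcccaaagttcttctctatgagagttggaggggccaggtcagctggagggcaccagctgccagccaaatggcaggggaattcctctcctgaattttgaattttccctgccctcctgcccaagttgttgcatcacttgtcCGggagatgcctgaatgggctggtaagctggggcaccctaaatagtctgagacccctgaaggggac
CACNA1S: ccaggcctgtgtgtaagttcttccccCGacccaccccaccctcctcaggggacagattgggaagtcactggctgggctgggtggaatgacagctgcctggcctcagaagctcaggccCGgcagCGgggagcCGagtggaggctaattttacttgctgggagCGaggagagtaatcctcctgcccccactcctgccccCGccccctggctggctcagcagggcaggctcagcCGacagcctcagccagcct
VCAM1: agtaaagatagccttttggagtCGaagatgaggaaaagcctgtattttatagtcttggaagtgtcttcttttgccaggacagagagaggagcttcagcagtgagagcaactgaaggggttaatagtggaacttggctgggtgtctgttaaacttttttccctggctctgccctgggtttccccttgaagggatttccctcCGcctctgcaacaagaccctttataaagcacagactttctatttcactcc
IL7R: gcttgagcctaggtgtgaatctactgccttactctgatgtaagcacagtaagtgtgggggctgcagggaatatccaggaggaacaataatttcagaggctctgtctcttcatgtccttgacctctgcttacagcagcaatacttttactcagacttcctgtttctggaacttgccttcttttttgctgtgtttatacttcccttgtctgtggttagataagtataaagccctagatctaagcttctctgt
ATOH8: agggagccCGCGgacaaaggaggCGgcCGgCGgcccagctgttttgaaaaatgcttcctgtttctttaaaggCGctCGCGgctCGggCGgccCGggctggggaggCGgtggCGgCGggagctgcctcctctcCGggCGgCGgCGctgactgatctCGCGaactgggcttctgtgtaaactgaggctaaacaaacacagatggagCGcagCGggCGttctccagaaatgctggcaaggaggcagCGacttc

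The libraries held 64281850 to 86010100 gene counts, which were 84.6% to 86.1% of the reads listed, so that a count of 0 with ACBI1 allows up to 0.0349 CPM in replicate 1 and 0.0467 CPM in replicate 2 (3 counts, counting error only). The RNA of the degrader's targets did not pass the test (SMARCA4 log2 change 0.70, SMARCA2 -0.40 and PBRM1 0.10, edgeR adjusted p = 0.0583, 0.163 and 0.734), which says nothing of the proteins. Lung epithelial markers were divided. NKX2-1, SFTPA1, SCGB1A1 and KRT5 had no count in any library, while KRT7, KRT8 and KRT18 were between 61.1 and 668 CPM. Of the 18 genes on the lung epithelial list, 4 had no count in any library and 5 stood at 2 CPM or more in both DMSO libraries.

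All 41 genes passed the filter on low counts, and all were called lower by edgeR, against a background of 10.6% of 19159 tested genes called lower and 6.75% called higher (12.6% called lower among the genes at 2 CPM or more in both DMSO libraries). Both ACBI1 libraries lay below both DMSO libraries for 27.9% of tested genes and for 29.5% of those above the DMSO minimum. The limits fix the members' result on both measures, so nothing is read from these counts. Without ACBI1 replicate 1 or replicate 2 the number of genes called lower over all genes was 964 and 1282 in place of 2037, and the number called higher was 415 and 525 in place of 1294 (858 without DMSO replicate 2). The opposite limits (at least 2 CPM in both ACBI1 libraries and at most 0.2 CPM in both DMSO libraries) were met by 2 genes.

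Summed over the 41 genes, the libraries held 25232 and 37558 counts with DMSO (297 and 513 CPM) and 229 and 196 counts with ACBI1 (2.66 and 3.05 CPM). The median gene had 4.96 and 7.76 CPM with DMSO and 0.0581 and 0.0467 CPM with ACBI1. No gene had fewer than 148 counts in a DMSO library or more than 16 in an ACBI1 library. The median ratio of DMSO to ACBI1 was 133, with genes at 0 set to the 3-count floor over the ACBI1 group, and the lowest was 21.9, for IFFO1. With ACBI1, 4 genes had no count in either library, another 7 had none in 1 of them, and 31 had more than 3 counts in all. Per kilobase of exon, the DMSO level ran from 0.373 CPM (MUC6) to 31.9 CPM (the non-coding RNA ENSG00000251144), with a median of 1.46.

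**Figure D1:**
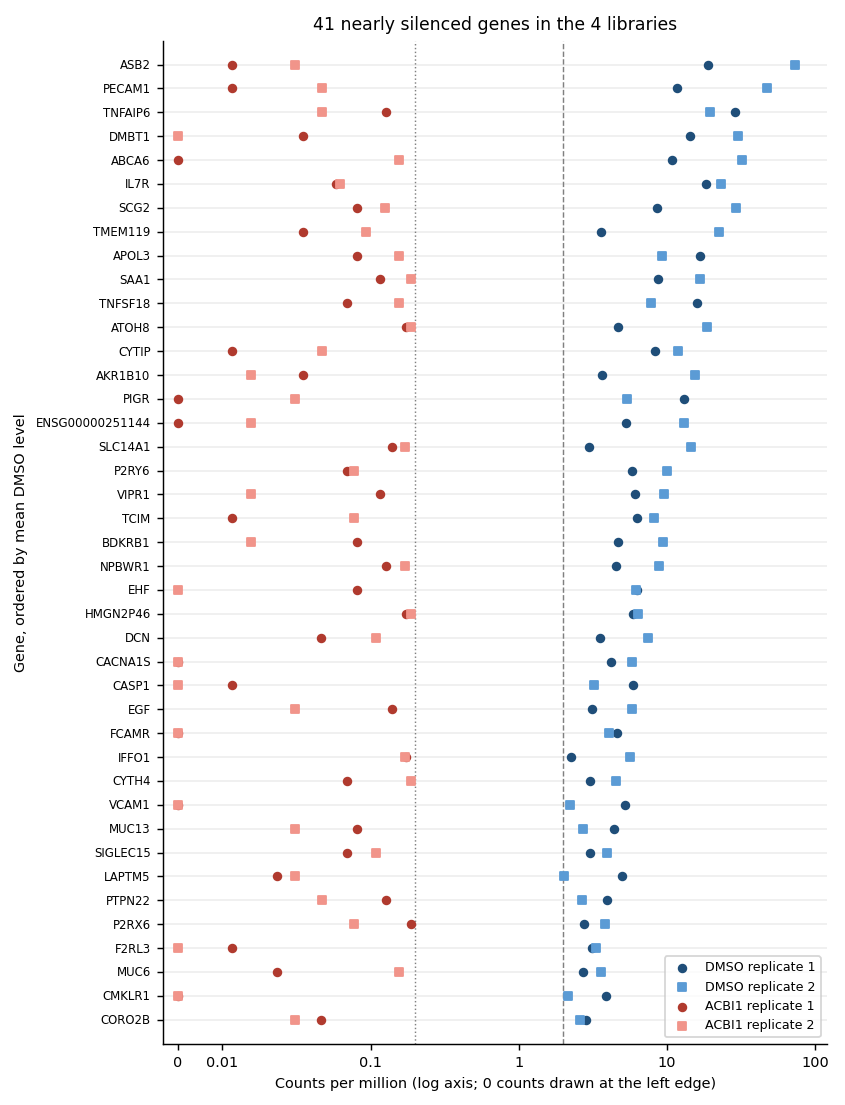
CPM of the 41 genes in the 2 DMSO libraries (blue) and the 2 ACBI1 libraries (red) on a log axis, 1 gene per line in the order of its mean DMSO level, with a count of 0 drawn at the left edge; the dashed and dotted lines are the 2 and 0.2 CPM limits that chose the genes. The gap between the groups is set by the limits, whereas the distance between the 2 blue points of a line is not: it is wide for TMEM119 (3.57 and 22.5 CPM) and narrow for EHF (6.23 and 6.14 CPM).

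The limits cut through a continuous range of levels. Just inside the DMSO minimum were LAPTM5 (lower DMSO value 2.02 CPM), CMKLR1 (2.16) and VCAM1 (2.20), and just outside it TNFSF10 (1.99), ZG16B (1.93) and MIR210HG (1.81). Just inside the ACBI1 maximum were SAA1, CYTH4 and HMGN2P46, each with a higher ACBI1 value of 0.187 CPM, and just outside it COL8A1 (0.218), ISLR2 (0.233) and MYZAP (0.244). With the rule applied to 3 libraries the list had 76 genes without DMSO replicate 1, where only DMSO replicate 2 had to reach the minimum. The other limits that were tried are given with the dependence on processing.

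The 41 genes were grouped by the role of their product, after their values were known: 8 surface receptors or adhesion molecules, 8 secreted or matrix proteins, 7 intracellular signalling or membrane proteins, 6 G protein-coupled receptors, 4 channels or transporters, 4 nuclear proteins, 2 non-coding RNAs, 1 ubiquitin ligase subunit and 1 enzyme. By annotation 38 are protein coding. They lie on 16 chromosomes, 7 of them on chromosome 1. TNFSF18, a membrane ligand, is counted with the secreted or matrix proteins.

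ASB2 (chr14:93934166-93976570) had 19.0 and 72.9 CPM in DMSO replicates 1 and 2 and 0.0116 and 0.0311 CPM in the ACBI1 libraries, where 3 reads were left against 6955 with DMSO. The ratio of DMSO to ACBI1 was 2201 (95% interval 753 to 10677). This interval and those of the other ratios cover counting error on pooled reads only, not the spread between libraries. The DMSO libraries themselves stood 3.84-fold apart, with replicate 2 the higher.

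The rest of the ASB2 ligase pathway was measured with 27 genes of the ASB family, the cullin-5 ligase and the filamins, of which 18 besides ASB2 could be tested. Of these, 2 were lower and 1 higher with ACBI1 and 15 were not called (background 10.6% lower and 6.75% higher). Their median log2 change was 0.09, against 0.01 over all tested genes. ASB6, another substrate receptor of the family, fell from 88.6 and 85.5 CPM to 48.6 and 53.7 CPM (log2 change -0.85, edgeR adjusted p = 0.0187). Filamin A, encoded by FLNA, fell from 2518 and 2262 CPM to 1091 and 1137 CPM (log2 change -1.19, edgeR adjusted p = 0.0123). The muscle filamin gene FLNC rose from 302 and 317 CPM to 542 and 750 CPM (log2 change 0.98, edgeR adjusted p = 0.0317), so FLNA and FLNC moved in opposite directions. The shared ligase subunits were not called: CUL5 had a log2 change of 0.10 (SE 0.20, adjusted p = 0.781), its RING partner RNF7 0.03 (0.904), and the elongin genes ELOB 0.24 (0.304) and ELOC 0.08 (0.746). The 3 calls depended on single ACBI1 libraries: without ACBI1 replicate 1 or replicate 2 neither ASB6 (edgeR adjusted p = 0.123 and 0.0614) nor FLNA (0.0719 and 0.0517) was called, and FLNC was not called without ACBI1 replicate 2 (0.147). Of the other ASB genes, ASB10, ASB15 and ASB17 had no count in any library.

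Among the secreted and matrix proteins, TNFAIP6, which encodes the hyaluronan-binding protein TSG-6, had 28.5 and 19.5 CPM with DMSO and 0.128 and 0.0467 CPM with ACBI1, and at 15.2 CPM per kilobase with DMSO it was among the highest of the 41 genes on that scale. DMBT1, a scavenger receptor protein of mucosal secretions, had 14.3 and 30.3 CPM with DMSO and 3 reads in all with ACBI1, a ratio of 1086 (95% interval 371 to 5270). SCG2, a granule protein of neuroendocrine cells, had 8.55 and 29.2 CPM with DMSO and 0.0814 and 0.124 CPM with ACBI1. The DMSO values of TNFAIP6 were higher in replicate 1, and those of DMBT1 and SCG2 in replicate 2. SAA1, an acute-phase apolipoprotein, had 8.74 and 16.8 CPM with DMSO and 0.116 and 0.187 CPM with ACBI1, and at 16.0 CPM per kilobase it was close to TNFAIP6. SAA1 and SAA2 are near-identical copies, so reads that match both can be lost or misassigned. TNFSF18, the membrane ligand of the receptor GITR counted in this group, had 15.9 and 7.76 CPM with DMSO and 0.0698 and 0.156 CPM with ACBI1. The remaining 3 were the growth factor EGF (3.09 and 5.78 CPM with DMSO and 0.140 and 0.0311 CPM with ACBI1), the proteoglycan decorin, DCN (3.53 and 7.41 CPM with DMSO and 0.0465 and 0.109 CPM with ACBI1), and the gel-forming mucin MUC6 (2.72 and 3.56 CPM with DMSO and 0.0233 and 0.156 CPM with ACBI1). DCN also stands on the fibroblast marker list described below.

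Among the surface proteins, PECAM1, the adhesion molecule CD31 of endothelial cells, platelets and leukocytes, had 11.7 and 47.3 CPM in DMSO replicates 1 and 2 and 0.0116 and 0.0467 CPM with ACBI1. IL7R, the alpha chain of the interleukin-7 receptor, had 18.4 and 23.0 CPM with DMSO and 0.0581 and 0.0622 CPM with ACBI1. Its DMSO values were close to each other and its ACBI1 values nearly equal. TMEM119, a single-pass membrane protein, had 3.57 and 22.5 CPM with DMSO and 0.0349 and 0.0933 CPM with ACBI1, and its DMSO libraries stood further apart (6.29-fold) than those of any other of the 41 genes. PIGR, which carries IgA and IgM across epithelia, had 13.0 and 5.34 CPM with DMSO and 2 reads with ACBI1, both in replicate 2, a ratio of 711 (95% interval 196 to 5874). FCAMR, an Fc receptor for IgA and IgM, had 4.57 and 4.03 CPM with DMSO and no ACBI1 read, at least 216-fold lower against the 3-count floor. VCAM1, an adhesion ligand for integrin alpha 4 on leukocytes, had 5.16 and 2.20 CPM with DMSO and no ACBI1 read, at least 190-fold lower on the same scale. The transmembrane mucin MUC13 (4.35 and 2.72 CPM with DMSO and 0.0814 and 0.0311 CPM with ACBI1) and the sialic acid-binding lectin SIGLEC15 (3.03 and 3.96 CPM with DMSO and 0.0698 and 0.109 CPM with ACBI1) completed the group. In 4 of these 8 genes the higher DMSO value was in replicate 2 and in 4 in replicate 1.

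The 6 G protein-coupled receptors had mean DMSO levels of 3.01 to 7.91 CPM. CMKLR1, the chemerin receptor, had 3.87 and 2.16 CPM with DMSO and no read with ACBI1, at least 154-fold lower against the floor. F2RL3, the protease-activated receptor PAR4, had 3.12 and 3.30 CPM with DMSO and 1 read with ACBI1, a ratio of 481 (95% interval 86.0 to 19052). P2RY6, a receptor for UDP, had 5.77 and 10.0 CPM with DMSO and 0.0698 and 0.0778 CPM with ACBI1. VIPR1, a receptor for vasoactive intestinal peptide, had 6.06 and 9.56 CPM with DMSO and 0.116 and 0.0156 CPM with ACBI1. The bradykinin B1 receptor gene BDKRB1 had 4.63 and 9.34 CPM with DMSO and 0.0814 and 0.0156 CPM with ACBI1. NPBWR1, a receptor for neuropeptides B and W, had 4.49 and 8.83 CPM with DMSO and 0.128 and 0.171 CPM with ACBI1. CMKLR1 was higher in DMSO replicate 1, and the other 5 receptors in replicate 2. Of their exon bases, 11.4% in VIPR1 and 20.7% in BDKRB1 also lie in another annotated gene. No strand setting is given in the sources used here, so reads there cannot be told apart.

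Of the 4 channel and transporter genes, CACNA1S, the L-type calcium channel of skeletal muscle, had 4.21 and 5.82 CPM with DMSO and no read with ACBI1, at least 248-fold lower against the floor. ABCA6, a transporter of the ABCA family, had 10.7 and 31.9 CPM with DMSO, no read in ACBI1 replicate 1 and 0.156 CPM in ACBI1 replicate 2. The urea transporter gene SLC14A1 had 2.95 and 14.6 CPM with DMSO and 0.140 and 0.171 CPM with ACBI1. P2RX6, a subunit of ATP-gated channels, had 2.76 and 3.80 CPM with DMSO and 0.186 and 0.0778 CPM with ACBI1. All 4 were higher in DMSO replicate 2 than in replicate 1.

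The 7 intracellular proteins include several best known from leukocytes. CYTIP, which binds cytohesins, had 8.30 and 11.8 CPM with DMSO and 0.0116 and 0.0467 CPM with ACBI1. CYTH4, a cytohesin that activates ARF GTPases, had 3.03 and 4.51 CPM with DMSO and 0.0698 and 0.187 CPM with ACBI1. CASP1, the protease that matures interleukin-1 beta, had 5.89 and 3.20 CPM with DMSO and 1 read with ACBI1, a ratio of 698 (95% interval 125 to 27604). The apolipoprotein L gene APOL3 had 16.7 and 9.26 CPM with DMSO and 0.0814 and 0.156 CPM with ACBI1. The lysosomal membrane protein gene LAPTM5 had 4.96 and 2.02 CPM with DMSO and 0.0233 and 0.0311 CPM with ACBI1, the tyrosine phosphatase gene PTPN22 3.90 and 2.68 CPM with DMSO and 0.128 and 0.0467 CPM with ACBI1 and the actin-binding coronin gene CORO2B 2.83 and 2.58 CPM with DMSO and 0.0465 and 0.0311 CPM with ACBI1. Of the 7, 5 were higher in DMSO replicate 1, and CYTIP and CYTH4 in replicate 2.

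Of the 4 nuclear proteins, the ETS factor EHF, which is typical of epithelia, had 6.23 and 6.14 CPM with DMSO, 0.0814 CPM in ACBI1 replicate 1 and no read in ACBI1 replicate 2. The bHLH factor ATOH8 had 4.67 and 18.7 CPM with DMSO and 0.174 and 0.187 CPM with ACBI1. The small regulator TCIM had 6.23 and 8.10 CPM with DMSO and 0.0116 and 0.0778 CPM with ACBI1, and the intermediate filament family gene IFFO1 2.25 and 5.58 CPM with DMSO and 0.174 and 0.171 CPM with ACBI1, the smallest fall of the 41. AKR1B10, the only enzyme of metabolism, is an aldo-keto reductase and had 3.62 and 15.3 CPM with DMSO and 0.0349 and 0.0156 CPM with ACBI1. The 2 non-coding RNAs were ENSG00000251144, with 5.29 and 13.0 CPM with DMSO and 1 read with ACBI1 (ratio 1331 (95% interval 239 to 52620)), and HMGN2P46, a transcribed pseudogene, with 5.93 and 6.39 CPM with DMSO and 0.174 and 0.187 CPM with ACBI1. In HMGN2P46, 15.4% of exon bases lie in another gene.

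The spread between the 2 DMSO libraries was not used by the rule beyond the minimum, and it was wide in these genes. Of the 41, 17 (41.5%) differed more than 2-fold between the DMSO libraries, 13 of them higher in replicate 2 and 4 higher in replicate 1. Among 7161 other genes in the same range of mean DMSO CPM the share was 4.59%. It was 4.19% among the 5776 genes of that range that were not called, 11.2% among 687 other genes called lower and 34.2% among the 114 of those lower by more than 3 on the log2 scale. Outside the 41, the share was thus also higher in the genes that fell furthest. Of the 41, 24 (58.5%) lay outside the range from the 5th to the 95th percentile of the other genes, which ran from -0.61 to 0.87 for the log2 ratio of replicate 2 to replicate 1. Over all 41 the higher value was in replicate 2 for 28 genes (68.3%), against 52.1% of the other genes in the range, 69.9% of those called lower and 67.5% of those lower by more than 3 on the log2 scale. The lean to replicate 2 was thus about as common in other genes called lower. The largest log2 ratios were those of TMEM119 (2.65), SLC14A1 (2.30), AKR1B10 (2.08) and PECAM1 (2.01), and the lowest those of LAPTM5 (-1.30), PIGR (-1.28) and VCAM1 (-1.23). Genes outside the 41 also differed between these libraries. The 7 fibroblast markers besides DCN above the DMSO minimum were all higher in replicate 2 (median log2 ratio 1.46), as was DCN. Of 21 secreted inflammatory genes besides SAA1 above it, 14 were higher in replicate 1 (median -0.32), whereas SAA1 was higher in replicate 2. Both lists were picked after values were seen. The part of such genes in the members' spread was not tested.

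**Figure D2:**
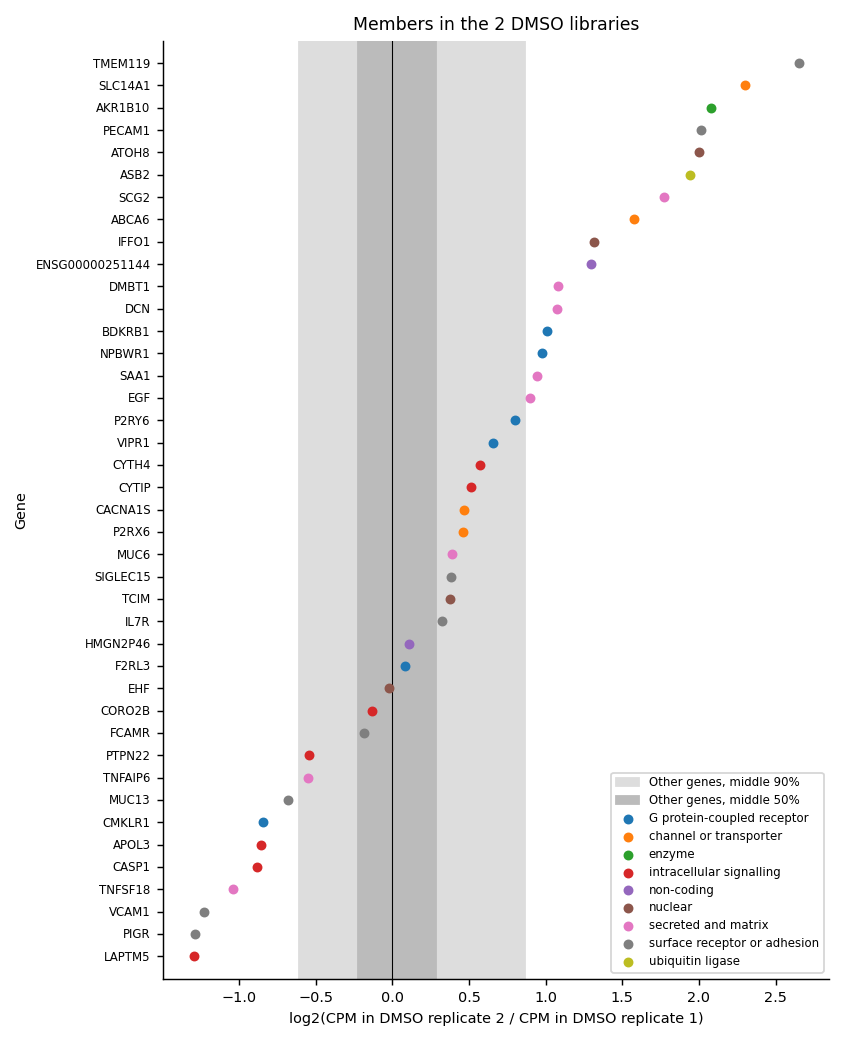
Log2 ratio of CPM in DMSO replicate 2 to DMSO replicate 1 for the 41 genes, coloured by role and ordered by value; the grey bands hold the middle 90% (light) and the middle 50% (dark) of 7161 other genes in the same range of mean DMSO CPM. 16 genes lie above the light band and 8 below it, and the intracellular signalling genes lie mostly to the left of 0.

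Several members carry names known from leukocytes, endothelium or fibroblasts, so marker lists of these cells were read in the same libraries. Of 14 leukocyte markers, CD3D, CD3E, CD2, MS4A1 and FCGR3A had no count in any library, PTPRC did not exceed 0.0273 CPM, and the list summed to 0.576 and 1.46 CPM with DMSO and 0.918 and 0.638 CPM with ACBI1. None of the 3 that could be tested was called. Of 10 endothelial markers the list summed to 13.3 and 49.1 CPM with DMSO, nearly all of it PECAM1 itself, and 0.535 and 0.576 CPM with ACBI1. The endothelial cadherin gene CDH5 stood at 0.0235 and 0.0546 CPM with DMSO and EMCN at 0 in all libraries. VWF fell from 0.282 and 0.314 CPM to 0 (edgeR adjusted p = 0.0130). The fibroblast list was high, at 1618 and 3752 CPM with DMSO and 245 and 875 CPM with ACBI1, mainly from POSTN, COL1A2 and COL1A1. Besides DCN, 8 of its genes could be tested and 4 were lower (COL1A2, LUM, PDGFRA and FAP). THY1 had no DMSO count. The part of fibroblast-type genes in the members' levels was not tested.

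The other lists give the setting in which the 41 genes fell. Of 32 tested secreted inflammatory genes besides SAA1, 22 were lower and 1 higher with ACBI1 (median log2 change -3.20), and of 49 interferon response genes besides APOL3, 27 were lower and 1 higher (-1.38). Of 24 innate immune receptor genes besides TNFAIP6, 13 were lower and 1 higher (-1.88). Of 22 matrix and protease genes 14 were lower (-2.28), and of 28 epithelial surface genes besides MUC13 and EHF 12 (-1.47). Of 12 eicosanoid genes besides AKR1B10 4 were lower (-0.88), and of 18 neural guidance genes 8, with 1 higher (-0.79). The channel and transporter list also holds the receptor gene P2RY6, the only one of the 41 on it. Of its 18 other tested genes 7 were lower (-0.80). Of 7 lung epithelial markers 5 were lower (-1.42), and of 10 housekeeping genes 2 (-0.08). Over all tested genes 10.6% were lower and 6.75% higher, and the median log2 change was 0.01. These lists were drawn up with results of these libraries known, so their direction is no independent evidence.

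Relatives and binding partners of the members were compared next, in 29 families put together after the members were known. Of 69 tested genes in them that are neither members nor left out by name, 27 (39.1%) were lower, 6 higher and 36 not called, with a median log2 change of -0.75. By comparison, 10.6% of all tested genes were called lower. The related genes were chosen after values were seen, so the difference is no independent evidence.

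Several close paralogs of members fell. BDKRB2, the bradykinin B2 receptor gene next to BDKRB1, had 43.7 and 84.4 CPM with DMSO and 0.570 and 0.327 CPM with ACBI1 (log2 change -7.21, SE 0.46, edgeR adjusted p = 0.00174). AKR1B15 had 28.1 and 41.3 CPM with DMSO and 0.686 and 0.591 CPM with ACBI1 (log2 change -5.84, SE 0.30, edgeR adjusted p = 0.00136), and AKR1B1 had 683 and 2444 CPM with DMSO and 184 and 245 CPM with ACBI1 (log2 change -2.94, SE 0.58, edgeR adjusted p = 0.0233; 0.0669 without ACBI1 replicate 1). ABCA10 had 22.0 and 70.7 CPM with DMSO and 0.942 and 2.40 CPM with ACBI1 (log2 change -4.88, SE 0.72, edgeR adjusted p = 0.0104). ABCA9, with 0 and 6 ACBI1 reads, was also lower (log2 change -5.51, SE 1.39, edgeR adjusted p = 0.0444), but not without ACBI1 replicate 1 (0.0973) or with DESeq2 (0.0945). SAA2 (log2 change -6.08, SE 0.73, edgeR adjusted p = 0.00645; 1 and 3 ACBI1 reads), CASP4 (log2 change -1.75, SE 0.23, edgeR adjusted p = 0.00770), APOL1 (log2 change -4.37, SE 0.27, edgeR adjusted p = 0.00141) and APOL6 (log2 change -2.70, SE 0.17, edgeR adjusted p = 0.00174) were lower too. The AKR1B, ABCA, SAA and caspase genes named here have similar copies, and reads that match several copies can be lost or misassigned.

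The ligand TNFSF4, next to TNFSF18, was lower (log2 change -1.98, SE 0.41, edgeR adjusted p = 0.0266), a call lost without DMSO replicate 2 or either ACBI1 library (0.0601, 0.0643 and 0.0921). The proteoglycan LUM, next to DCN, was lower (log2 change -3.19, SE 0.71, edgeR adjusted p = 0.0319; 0.0717 without ACBI1 replicate 1). ICAM1, like VCAM1 an adhesion ligand for leukocyte integrins, had 207 and 154 CPM with DMSO and 10.8 and 11.1 CPM with ACBI1 (log2 change -4.13, SE 0.23, edgeR adjusted p = 0.00141) and so kept reads with ACBI1. TGFA, a second ligand of the EGF receptor, was lower (log2 change -2.02, SE 0.21, edgeR adjusted p = 0.00454), and so were the ATP-gated channel gene P2RX7 (log2 change -3.23, SE 0.68, edgeR adjusted p = 0.0277) and the coronin gene CORO6 (log2 change -2.38, SE 0.34, edgeR adjusted p = 0.0101).

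Several other relatives rose or were not called. F2RL1, the protease-activated receptor PAR2, rose from 21.5 and 26.9 CPM to 65.8 and 99.1 CPM (log2 change 1.69, SE 0.25, edgeR adjusted p = 0.0104), while F2RL3 went to 1 read. CYTH3, a cytohesin like CYTH4, rose (log2 change 1.18, SE 0.16, edgeR adjusted p = 0.00846). NPW, a ligand of NPBWR1, rose from 13.2 and 15.8 CPM to 67.1 and 64.9 CPM (log2 change 2.10, SE 0.17, edgeR adjusted p = 0.00234). Among partners, the integrin subunits that bind VCAM1, ITGA4 (-0.29, edgeR adjusted p = 0.323) and ITGB1 (0.06, 0.870), the kinase JAK1 that signals from the interleukin-7 receptor (-0.44, 0.110), EGFR (0.32, 0.251) and P2RY2, the neighbour of P2RY6 (-0.12, 0.743), were not called. Not all partners were uncalled: of the 4 tested genes grouped with IL7R, 1 was lower and 1 higher. Of the 6 tested genes grouped with EGF, 3 were lower and 3 not called. The difference between a member and its relative was not tested, because the member was chosen for its fall.

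**Figure D3:**
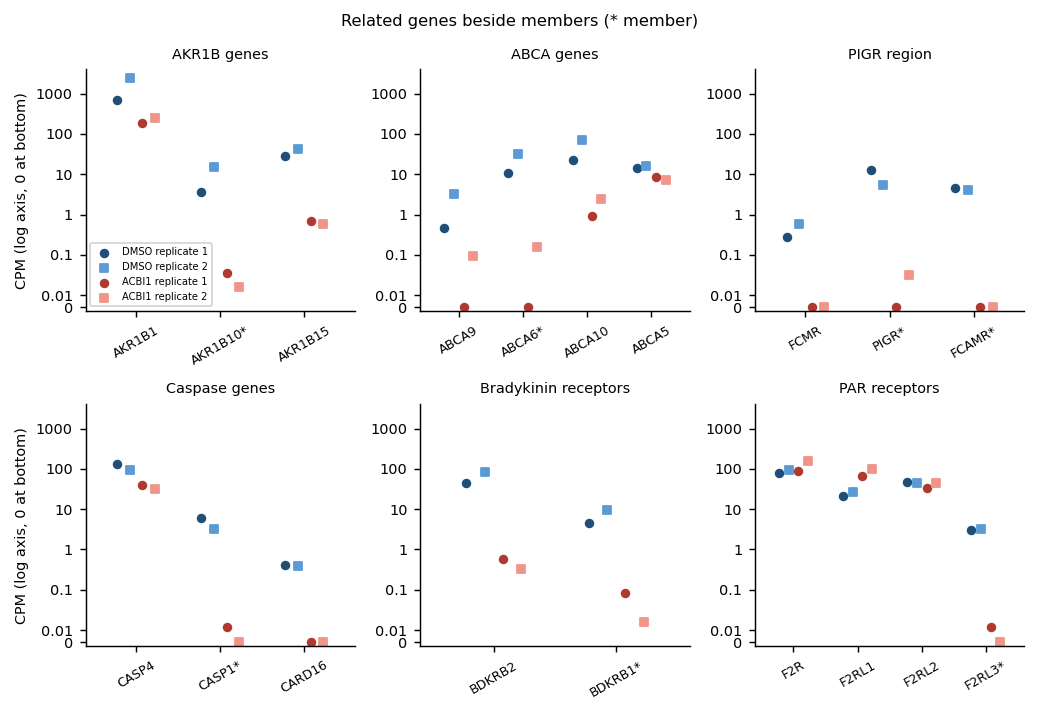
CPM on a log axis (0 at the bottom) of 6 members or member pairs, marked with an asterisk, beside related genes, in the 2 DMSO libraries (blue) and the 2 ACBI1 libraries (red). The related AKR1B, ABCA, caspase and bradykinin receptor genes stand lower with ACBI1 and the PIGR neighbour FCMR drops to 0, whereas the protease-activated receptor gene F2RL1 is higher with ACBI1 than with DMSO.

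The nearest tested gene on either side of each member was read next, and the rule did not choose these genes. For 40 members with a position in RefSeq this gave 77 different genes, of which 26 (33.8%) were called lower, 3 (3.90%) higher and 48 not called, with a median log2 change of -0.52. The background is again 10.6% lower and 6.75% higher. Without ACBI1 replicate 1 the counts were 15 lower and 1 higher, and without ACBI1 replicate 2 they were 23 and 1. Within 100 kb of the member, between the lower coordinates of the 2 genes, 17 of 42 neighbours were lower, and within 500 kb 24 of 69. Part of this came from gene families that lie together: of 13 neighbours from the member's own family 11 were lower, and of the 64 others 15 (23.4%) were lower and 3 higher. All 13 were already counted among the related genes above, so the neighbours and the relatives are overlapping sets. At least 1 neighbour was lower for 23 members, both were for 4, and none was for 17.

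Among the neighbours called lower, 4 weakly expressed genes ended without a read, so that their fall is known only as a lower bound. The bounds lie below the 134-fold ratio of the neighbour BDKRB2 (95% interval 106 to 172), which kept reads. That interval covers counting error on pooled reads only: BDKRB2 had 43.7 and 84.4 CPM with DMSO and 0.570 and 0.327 CPM with ACBI1. ERMN, next to CYTIP, went from 0.905 and 0.874 CPM to 0 in both ACBI1 libraries, at least 44.6-fold lower against the floor (edgeR adjusted p = 0.00584). FCMR, the Fc receptor gene for IgM beside PIGR and FCAMR, went from 0.282 and 0.573 CPM to 0, at least 20.9-fold lower (edgeR adjusted p = 0.0148). CARD16, beside CASP1, and CPAMD8, beside F2RL3, each had 35 and 28 DMSO counts and none with ACBI1, at least 19.9-fold lower (edgeR adjusted p = 0.0104 for each). CARD16 resembles part of CASP1, so reads that match both can be lost or misassigned. The 3 neighbours that rose were SLC30A4 beside HMGN2P46 (log2 change 2.91, SE 0.42, edgeR adjusted p = 0.00980), AP1S3 beside SCG2 (log2 change 1.23, SE 0.25, edgeR adjusted p = 0.0254) and SDC3 beside LAPTM5 (log2 change 0.76, SE 0.19, edgeR adjusted p = 0.0426). SLC30A4 overlaps HMGN2P46 on the other strand, so their reads cannot be told apart without strand, although the counts of the 2 genes moved in opposite directions. AP1S3 was not called without either ACBI1 library (0.0800 and 0.101), and SDC3 was not called without DMSO replicate 2 or either ACBI1 library (0.144, 0.169 and 0.106).

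**Figure D4:**
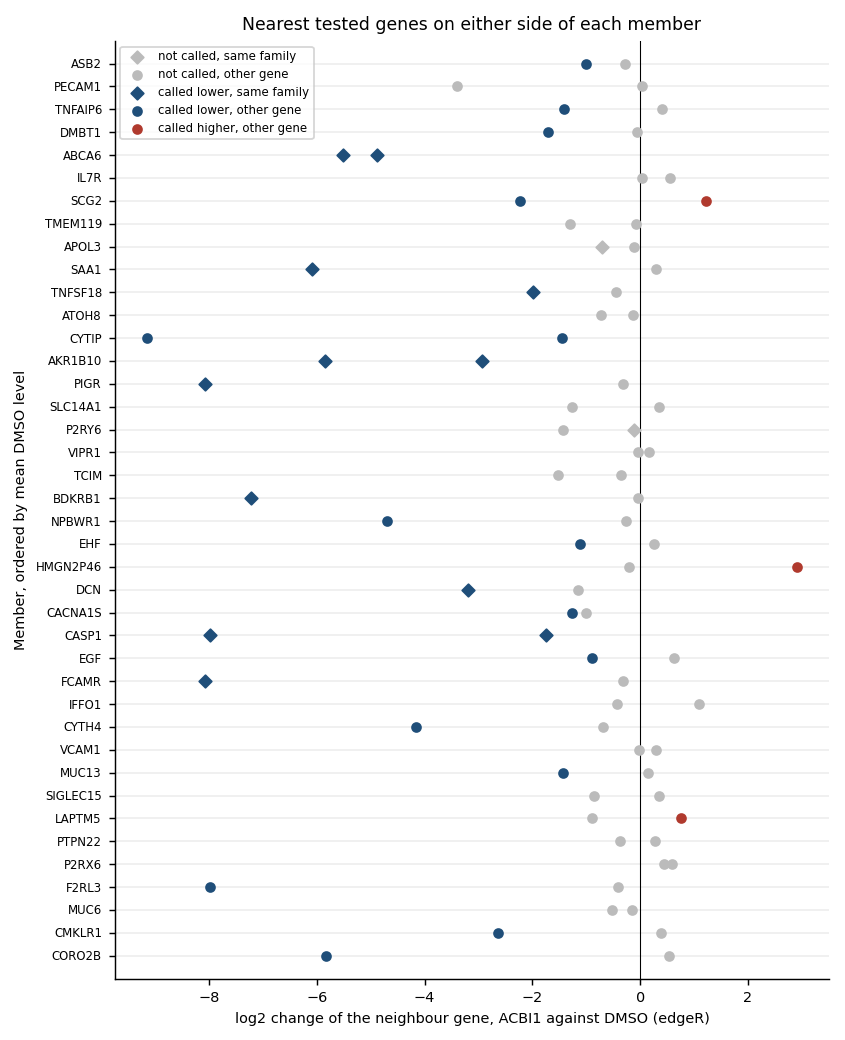
Fitted log2 change (edgeR) of the nearest tested gene on either side of each of 40 members, 1 member per line; blue points were called lower, red higher and grey not called, and diamonds belong to the member's own family. Points beyond -7 other than BDKRB2 are genes with no ACBI1 count, whose fitted value depends on the prior count; most of the remaining grey and blue points lie between -2 and 1.

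In 3 places 2 members lie within 1 Mb of each other. PIGR (chr1:206928522-206946466) and FCAMR (chr1:206957967-206970638) are separated by 11.5 kb on chromosome 1 with no tested gene between them, and with FCMR next to PIGR the 3 genes of this receptor group all ended with 2 or fewer ACBI1 reads each. SLC14A1 (chr18:45724181-45752520) and SIGLEC15 (chr18:45825675-45844094) on chromosome 18 enclose 1 tested gene, EPG5, which was not called (log2 change 0.36, edgeR adjusted p = 0.185; 30.2 and 36.4 CPM with DMSO and 47.5 and 43.1 CPM with ACBI1). CMKLR1 (chr12:108288046-108339311) and TMEM119 (chr12:108589851-108598084) on chromosome 12 enclose 3: FICD fell (log2 change -2.64, edgeR adjusted p = 0.00532), and ISCU (-0.07, 0.917) and SART3 (0.39, 0.206) were not called. So at 2 of the 3 places an expressed gene between 2 members was not called.

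The transcript starts of the 41 genes were poor in CpG. Over the first 200 bases of the GENCODE 29 transcript, a start was counted as CpG-rich at an observed to expected CpG ratio of at least 0.6 and a GC content of at least 50%. Of the 40 members with a transcript, 5 (12.5%) were CpG-rich: ATOH8, CORO2B, SCG2, TCIM and VIPR1. Of 12031 other genes above the DMSO minimum, 75.0% were CpG-rich, and of the 1496 of those called lower, 66.1%. The median CpG ratio was 0.30 in the members (quartiles 0.20 and 0.48), 0.82 in the other genes and 0.76 in the other genes called lower. Over the first 500 bases the shares were 12.8%, 62.3% and 56.4%. The measure was chosen after the members were known, and no test was run over the list.

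**Figure D5:**
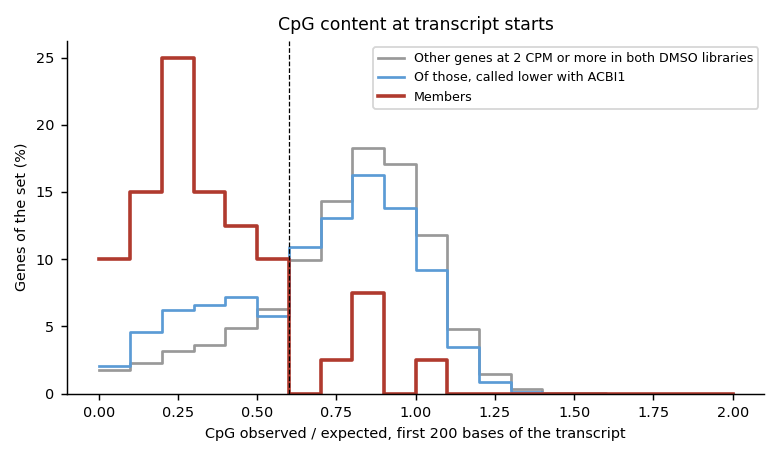
Share of genes (%) by the observed to expected CpG ratio of the first 200 transcript bases, for the 40 members with a transcript (red), 12031 other genes at 2 CPM or more in both DMSO libraries (grey) and the 1496 of those called lower with ACBI1 (blue); the dashed line is the ratio of 0.6 used for CpG-rich starts. Most members lie left of the line (median 0.30) and most genes of the other sets right of it (medians 0.82 and 0.76).

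RefSeq promoters (250 bases before to 50 after the start) were matched for 24 of the 41 genes, 33 promoters in all. That is 58.5% of the list, too few for a check over it, which is void, and the promoter values describe those 24 genes only. Their median CpG ratio was 0.24, against 0.82 in the promoters of other genes above the DMSO minimum. It was 0.73 in those of such genes called lower and 0.58 in all promoters of the table. Letters were searched on both strands. TATAAA was found in 21.2% of the 33 promoters, 6.20% of the promoters of other expressed genes and 11.5% of all promoters in the table. GGAATG, a letter pattern bound by TEAD factors, was found in 21.2%, 11.3% and 14.0%. The AP-1 pattern TGANTCA was found in 9.09%, 5.14% and 7.71%. In the promoters of other expressed genes called lower the shares were 8.32% for TATAAA, 11.1% for GGAATG and 8.27% for TGANTCA, the last close to that of the 33 promoters. The shares among the 33 stand for 7, 7 and 3 promoters, and the 7 with TATAAA belong to 5 genes. TATAAA begins 29 bases before the start in both VCAM1 and IL7R, 2 of the genes whose upstream sequence is printed here. In the upstream sequences of ASB2, PIGR, FCAMR and ATOH8 none of the 3 patterns was found. A match is a run of letters and not a measured binding site.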

How the data were processed

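RNA-seq libraries of H1792 cells, 2 with DMSO and 2 with ACBI1, were grouped by the sample titles. The deposited values are raw read counts per gene symbol. Reads were aligned with TopHat2 2.1.1 to hg38 and counted with HTSeq 0.11.0, per the submitters' processing notes. The annotation and strand setting are not given in the sources used here. The 5 further lines for reads in no gene held 13.9% to 15.4% of the reads listed and were left out.

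CPM are counts divided by the sum of gene counts, times 1e+06. Genes kept by filterByExpr (minimum count 10, minimum total 15) were tested on treatment with edgeR 4.0.16 in R 4.3.3 (TMM scaling, quasi-likelihood F test, two-sided, Benjamini-Hochberg adjustment over 19159 genes, threshold 0.05). Tests were run on a single draw of simulated counts, from means over all 4 libraries, with 200 of 19159 genes changed. They recovered 82.5% of genes lowered by 4 on the log2 scale, 57.5% at 2 and 17.5% at 1, with 10 false calls. In the data 2037 genes were called lower and 1294 higher, so recovery there can differ. Ratios of group counts have exact 95% binomial intervals. Intervals and floors (3 counts) cover counting error only.

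Gene positions and promoters came from RefSeq (GRCh38.p14), and transcript starts, exon lengths and overlaps from GENCODE 29, matched by symbol for 40 of 41 members each. The members, 14 gene lists and the naming rule were chosen with earlier results of these data known, and roles, related genes, the CpG measure and the DMSO comparison after values were seen. Named genes are the 15 members with the highest mean DMSO CPM, members on a list or near another member, genes next to each limit, called genes of the ASB list with the ligase core, and the 4 called neighbours with the largest change in each direction. Other members are given for completeness, and further relatives were chosen after their values were seen. One gene of the ASB list is counted but not reported here by name. Alternatives were other scalings, no filter, other limits, the replicate number as a block, DESeq2 1.42.0 and each library left out in turn.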

Additional observations from a re-analysis of the deposited data

How the results depend on the processing

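The number of members followed the limits: 80 at 1 CPM and 18 at 5 CPM with DMSO, and 22 at 0.1 CPM and 77 at 0.5 CPM with ACBI1, in place of 41. It was 39 to 42 under other scalings or without mitochondrial genes, and 49 to 76 with 1 library left out. Without a filter on low counts, 3316 genes were lower and 2202 higher over all genes. With 1 library left out, when the lone library of an arm is assumed to vary like the other group, 964 to 2641 were lower and 415 to 1651 higher, the ASB list had 0 to 2 lower and 0 to 1 higher, the neighbours had 15 to 29 lower and 1 to 4 higher, and the related genes had 19 to 30 lower and 4 higher each time. Scaling by library size alone gave 2 higher genes in the ASB list. Neighbours within 100 kb gave 17 lower and 1 higher, and neighbours outside the member's family, an alternative chosen after seeing the data, 15 lower. The cause of these shifts was not tested.

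Replicates of the same number deviated together (Pearson r = 0.44 across 19159 genes, which are not independent replicates), but the labels do not say that a number marks a shared culture or batch, so the numbers were not taken as pairs. With the replicate number as a block, 4201 genes were lower and 3708 higher, 3 genes of the ASB list were lower and 2 higher, and 40 neighbours were lower and 9 higher; of the single genes named, the block changed only the call of JAK1 (log2 change -0.44, edgeR adjusted p = 0.0205).

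Of the tested single genes under all alternatives, 319 values kept direction and call, 17 lost the call, 1 gained it and 5 changed direction, all among uncalled genes with 1 library left out. The log2 change of CUL5 then ran from -0.10 to 0.27, of ITGB1 from -0.076 to 0.21 and of P2RY2 from -0.30 to 0.042. The sign of the members' fitted changes is set by the limits and is no measure of stability. Depth limits the ACBI1 level of the 4 members without a read and the 6 with 1 to 3 reads in all, whose order was not read.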
